A study of Mus musculus with 6 samples.

Results

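NRF2, encoded by Nfe2l2, and 9 genes that act with it or downstream of it were followed in the long-term haematopoietic stem cells (LT-HSCs) of Dcaf8 knockout and wild-type mice. The 10 genes were NRF2 itself, its partners and inhibitors Keap1, Bach1 and Mafg, and the antioxidant targets Gclm, Gclc, Txnrd1, Nqo1, Hmox1 and Srxn1. They were taken by symbol from a table of 55357 gene identifiers, and all 10 were found. The set was chosen by name, with its levels in these wild-type and knockout libraries already known, so the difference between genotypes is given for it as a description. The data are RNA-seq read counts from 3 wild-type mice and 3 mice with the genotype Dcaf8 KO, both described as young. Each library was amplified from 50 LT-HSCs of the bone marrow, gated as lineage-negative cells with Sca-1, c-Kit and CD150 and without CD48. Neither the strain and sex nor the knockout allele, and so whether Dcaf8 was lost in all tissues or in blood cells alone, is stated in the labels. The product of Dcaf8 brings substrates to ubiquitin ligases built on CUL4 and DDB1, and the study asked how its loss impairs stem cell function.

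NRF2 is a transcription factor that is made continuously and destroyed almost as fast. KEAP1 holds it for the CUL3 ubiquitin ligase until oxidants or electrophiles modify KEAP1, and NRF2 then enters the nucleus. There it pairs with a small MAF protein such as MAFG on antioxidant response elements, which the repressor BACH1 otherwise occupies with the same partners. Its targets make glutathione, recycle thioredoxin and peroxiredoxin, reduce quinones and break down heme. In blood stem cells, which are sensitive to reactive oxygen, NRF2 is known for roles in survival and retention in the marrow. Because its activity is set largely by protein turnover, the level of its transcript is only part of its control, and protein was not measured here.

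Antioxidant response elements were looked for in the 250 bases before each start site, because they are the DNA letters through which NRF2 and BACH1 act. Sequences were those of RefSeq on GRCm38.p6, another build than the one named for the counts, and 8 of the 10 genes had an entry, Gclc and Hmox1 being the others. Both strands were searched for the core element TGACNNNGC, its variant TGAGNNNGC and the AP-1 letters TGAGTCA, which overlap the variant where the sequence reads TGAGTCAGC. The core element was present in 10.2% of 32851 mouse promoter windows of the same length, the variant in 14.4% and the AP-1 letters in 4.46%. Of the 10 start sites listed for the 8 genes, 4 had the core element, each in a different gene. It began 240 bases before the start of Nfe2l2 and, on the opposite strand, 222 bases before Mafg, 134 bases before Gclm and 92 bases before the second of the 3 listed starts of Txnrd1. Srxn1 had the variant 158 and 45 bases upstream and the AP-1 letters 102 and 45 bases upstream, and the windows of Keap1, Bach1 and Nqo1 had none of the 3 motifs. A match is a run of letters and not a measured binding site, and no match concerns this window alone. The windows of the 3 genes whose levels did not overlap between genotypes (Nfe2l2, Keap1 and Gclm) and of Srxn1, which had the most matches, are shown 5′ to 3′ on the strand of the gene, with matches in capitals. They lie at chr2:75704664-75704913 (minus strand), chr9:21239333-21239582 (minus strand), chr3:122245307-122245556 (plus strand) and chr2:152105274-152105523 (plus strand).
Nfe2l2: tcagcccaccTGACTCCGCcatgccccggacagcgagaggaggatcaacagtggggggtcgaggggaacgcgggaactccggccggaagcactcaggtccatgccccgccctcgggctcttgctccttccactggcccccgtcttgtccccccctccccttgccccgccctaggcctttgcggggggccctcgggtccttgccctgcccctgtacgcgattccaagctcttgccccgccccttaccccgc
Keap1: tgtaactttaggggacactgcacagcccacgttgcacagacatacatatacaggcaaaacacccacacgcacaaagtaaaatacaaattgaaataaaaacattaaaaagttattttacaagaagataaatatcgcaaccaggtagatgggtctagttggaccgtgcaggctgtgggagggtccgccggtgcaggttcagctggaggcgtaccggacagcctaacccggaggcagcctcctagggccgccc
Gclm: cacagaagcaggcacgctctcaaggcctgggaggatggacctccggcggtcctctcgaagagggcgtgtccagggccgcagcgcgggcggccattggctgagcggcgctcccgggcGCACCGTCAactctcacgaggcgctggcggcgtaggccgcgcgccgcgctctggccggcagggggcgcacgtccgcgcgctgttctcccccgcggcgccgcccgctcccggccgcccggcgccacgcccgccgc
Srxn1: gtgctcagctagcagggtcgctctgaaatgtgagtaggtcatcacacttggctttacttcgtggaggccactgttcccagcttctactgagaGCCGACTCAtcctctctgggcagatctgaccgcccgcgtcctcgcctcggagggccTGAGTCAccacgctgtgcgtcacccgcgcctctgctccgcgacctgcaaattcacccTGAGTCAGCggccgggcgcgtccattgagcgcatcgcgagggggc

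Library totals ranged from 14461864 to 22386387 counts. Levels are CPM, a gene's share of the library's counts, scaled by TMM factors, which adjust for composition and lay between 0.989 and 1.02. Dcaf8 stood at 291, 293 and 204 CPM in wild-type replicates 1 to 3 and at 74.3, 38.1 and 45.2 CPM in knockout replicates 1 to 3. All 14 LT-HSC markers examined, among them Ly6a, Kit, Slamf1 and Procr, had counts in every library, with summed levels of 3462 to 3828 CPM in wild-type and 3269 to 4082 CPM in knockout. Wild-type replicate 2 also held RNA of neutrophil granule genes: the 13 markers summed to 6389 CPM there and to 123 to 289 CPM elsewhere, where Prtn3 made up most of the sum, and Ctsg and Mmp8 were at 0 in all libraries. Macrophage markers (11 of 12 with counts, Adgre1 at 0) summed to 455 to 951 CPM in wild-type and 447 to 596 CPM in knockout, most of it Lyz2. Knockout replicate 3 was the 1 library with abundant Xist, 50.7 CPM, and with Y-linked genes at or near 0. This is the pattern of female cells. The Y-linked gene Ddx3y stood at 56.4 to 154 CPM in the other libraries, the pattern of male cells, so sex was not balanced between genotypes. Wild-type replicate 3 had the fewest genes with a count, 15244 against 16183 to 17015.

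Nfe2l2 and Keap1, the factor and its inhibitor, were both lower in every knockout library than in any wild-type library, and Gclm, a glutathione synthesis gene, was higher in every knockout library. The other 7 genes overlapped between genotypes, and all of their fitted values lay above 0, as did 50.9% of those of all genes tested. The values of Bach1, Gclc and Srxn1 turned below 0 when single libraries were left out. edgeR's quasi-likelihood test, fitted on all 14592 genes that passed a filter on low counts, called 0 of the 10 genes at an adjusted p under 0.05, in a comparison where it called 0.0% of all genes. It did not call Dcaf8 itself either, at a log2 fold change of -2.28 ± 0.28 (SE) and an adjusted p of 0.739. DESeq2 did call Dcaf8 (adjusted p = 1.98e-09), so the lack of a call by edgeR does not show that a gene was unchanged. An edgeR p under 0.05 before adjustment was found for 3 of the 10, Nfe2l2, Keap1 and Gclm, and for 5.82% of all genes. DESeq2 called 1 of the 10, Nfe2l2, and 0.861% of all genes (0.562% higher and 0.298% lower in knockout cells). limma-voom called 0 of the 10 and 0.0% of all genes. Its unadjusted p was under 0.05 for 5.63% of all genes and, among the 10, for Nfe2l2 and Gclm. For Keap1 the unadjusted p was 0.0485 by edgeR and 0.0746 by limma-voom. Groups that did not overlap were found for 3 of the 10 genes, 1 higher and 2 lower in knockout, and for 10.3% of all genes, 5.91% higher and 4.43% lower. These shares are set side by side as a description, since the same contrast helped to choose the genes. The median log2 fold change was 0.31 over the 10 genes, all of which passed the filter, and 0.01 over all genes tested. In bulk libraries, fewer cells of a type and less RNA per cell cannot be told apart.

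**Figure D1:**
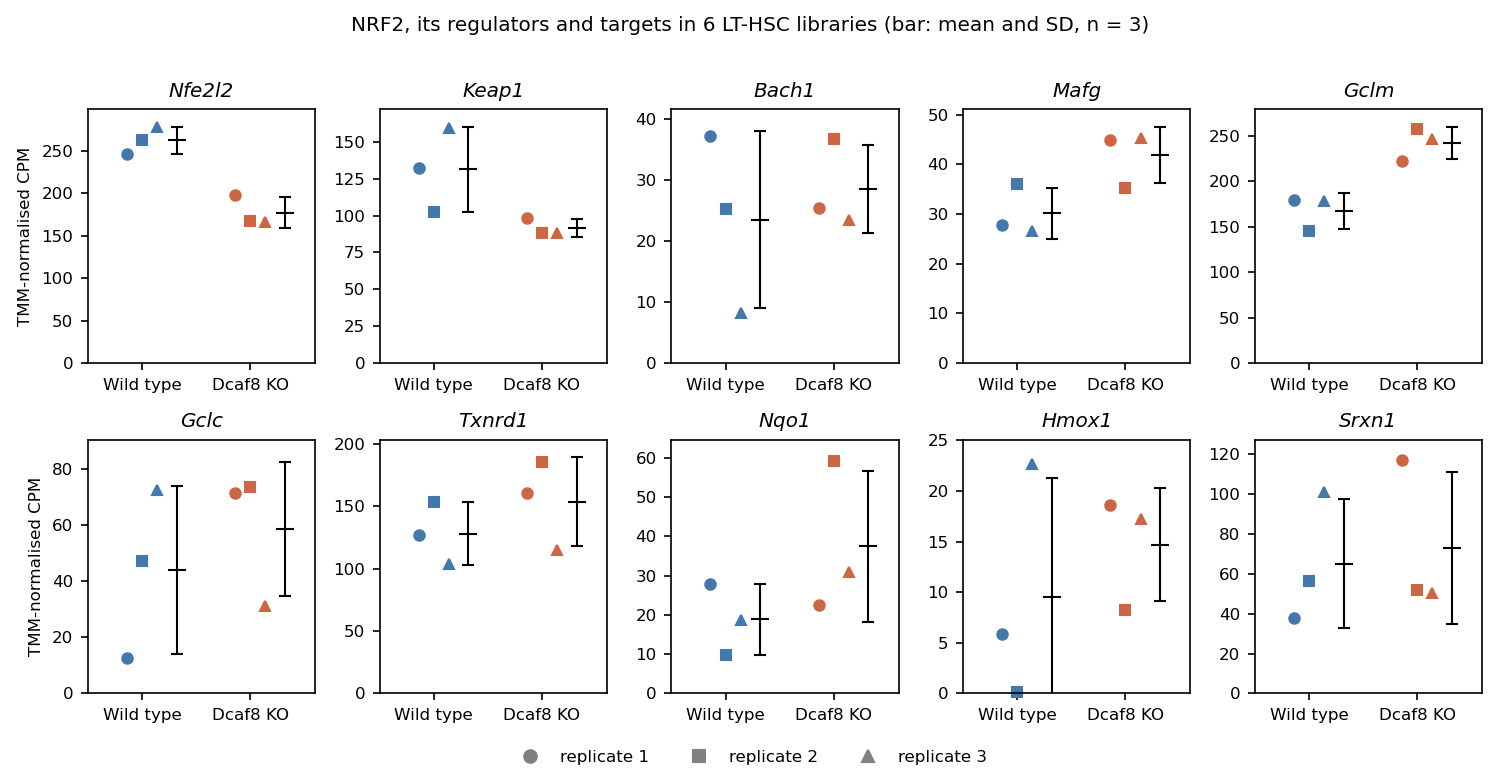
Level of each of the 10 genes in TMM-normalised CPM (y axis, from 0, a different scale in each panel) in wild-type and Dcaf8 KO libraries (x axis). Points are libraries, with a shape for each replicate number, and bars give the mean and SD of 3 libraries; the lower end of the wild-type Hmox1 bar lies below 0 and is not drawn. Nfe2l2 and Keap1 lie lower and Gclm higher in all 3 knockout libraries, and the other 7 panels overlap.

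Nfe2l2 (ENSMUSG00000015839) stood at 246, 262 and 278 CPM in wild-type replicates 1 to 3 and at 198, 167 and 166 CPM in knockout replicates 1 to 3. All 3 knockout libraries lay below the lowest wild-type library. The means were 262 ± 16.3 and 177 ± 18.4 CPM (SD, n = 3 per group), so that knockout cells had 67.5% of the wild-type level. The fitted log2 fold change was -0.56 ± 0.14 (SE), with an adjusted p of 0.739 by edgeR and 0.00874 by DESeq2. DESeq2 no longer called it when 1 of 4 libraries was left out: the adjusted p was then 0.0545 (wild-type replicate 2), 0.0752 (wild-type replicate 3), 0.0680 (knockout replicate 2) or 0.0830 (knockout replicate 3). Over all alternatives, edgeR and limma-voom included, the adjusted p ranged from 2.33e-04 to 1.00. The size of the difference moved less, from -0.66 to -0.51 on the log2 scale as single libraries were left out of the edgeR fit. Without the library that held neutrophil RNA it was -0.56, and without the Xist-positive library -0.51.

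Keap1 (ENSMUSG00000003308), the adaptor that presents NRF2 to the CUL3 ligase, stood at 132, 102 and 159.5 CPM in wild-type and at 98.4, 88.4 and 87.9 CPM in knockout libraries. The groups were separated by little: wild-type replicate 2, at 102 CPM, was close to knockout replicate 1, at 98.4 CPM. Means were 131 ± 28.7 and 91.5 ± 5.91 CPM (SD, n = 3 per group), with a log2 fold change of -0.52 ± 0.22 (SE) that ranged from -0.67 without wild-type replicate 2 to -0.35 without wild-type replicate 3 and was -0.48 without the Xist-positive library. DESeq2 without wild-type replicate 2 called Keap1 (adjusted p = 0.0310), and with all libraries it did not (adjusted p = 0.511). In the GENCODE annotation of GRCm38, 10.9% of the exonic bases of Keap1 overlap the antisense gene Gm16754, which had 511 to 1209 counts per library. Whether reads were counted by strand is unknown, and reads of that overlap could belong to either gene.

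Mafg and Bach1, which encode a partner and a competitor of NRF2 on DNA, overlapped between genotypes. Mafg (ENSMUSG00000051510), a small MAF protein that binds DNA with either NRF2 or BACH1, stood at 27.9, 36.0 and 26.5 CPM in wild-type and at 44.9, 35.3 and 45.3 CPM in knockout libraries. Knockout replicate 2 lay just under wild-type replicate 2, and the other knockout libraries lay above all wild-type libraries. The means were 30.1 ± 5.13 and 41.8 ± 5.67 CPM (SD, n = 3 per group), a log2 fold change of 0.49 ± 0.31 (SE). In the annotation, 2.21% of the exonic bases of Mafg are shared with the neighbouring gene Sirt7 on the same strand. Sirt7 had 1636 to 3833 counts per library, against 495 to 1024 for Mafg, and reads of that overlap could belong to either gene. Bach1 (ENSMUSG00000025612), the repressor that competes with NRF2, stood at 37.2, 25.3 and 8.17 CPM in wild-type and at 25.4, 36.8 and 23.5 CPM in knockout libraries. Wild-type libraries alone spanned more than the whole knockout range. The log2 fold change of Bach1, 0.25 ± 0.52 (SE), was -0.15 once wild-type replicate 3 was left out, so its direction rested on that library. It was 0.71 when wild-type replicate 1 was dropped and 0.08 when knockout replicate 2 was dropped.

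The proportion of Nfe2l2 to Keap1 within a library varied among wild-type libraries and was nearly constant among knockout libraries. The ratio of Nfe2l2 to Keap1, per kilobase of exon, was 2.29, 3.17 and 2.16 in wild-type libraries and 2.49, 2.33 and 2.33 in knockout libraries, in replicate order. The means of this ratio were 2.54 ± 0.55 and 2.39 ± 0.09 (SD, n = 3 per group), and every knockout value lay inside the wild-type range. The ratio of Nfe2l2 to Bach1 was 10.8, 16.9 and 55.5 in the wild-type group and 12.7, 7.38 and 11.5 in the knockout group. Its highest value came from wild-type replicate 3, where Bach1 was lowest.

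Glutathione is made in a rate-limiting step by glutamate-cysteine ligase, which has a catalytic subunit, GCLC, and a modifier subunit, GCLM. Gclm (ENSMUSG00000028124) stood at 179, 145 and 178 CPM in wild-type and at 222, 257 and 247 CPM in knockout libraries, with no overlap. Its means were 167 ± 19.4 and 242 ± 17.8 CPM (SD, n = 3 per group), 1.45 times the wild-type level in knockout. The log2 fold change was 0.53 ± 0.15 (SE) and ranged from 0.44 without wild-type replicate 2 to 0.59 without knockout replicate 1, and was 0.52 without the Xist-positive library. The adjusted p was 0.739 by edgeR and 0.0560 by DESeq2, which called the gene when wild-type replicate 1 was left out (adjusted p = 0.0253). Of the exonic bases of Gclm in the GENCODE annotation of GRCm38, 4.71% overlap Gm17494 on the opposite strand, with 105 to 333 counts per library, and 3.88% overlap the pseudogene Gm6061.

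The catalytic subunit varied far more. Gclc (ENSMUSG00000032350) stood at 12.7, 47.1 and 72.3 CPM in wild-type and at 71.4, 73.4 and 31.1 CPM in knockout libraries. Wild-type replicate 1 and knockout replicate 3 were low, and the groups overlapped over most of their range. The log2 fold change of Gclc, 0.36 ± 0.56 (SE), turned to -0.05 without wild-type replicate 1 and was 0.91 without wild-type replicate 3. Leaving out knockout replicates 1, 2 and 3 in turn gave 0.14, 0.20 and 0.70. The 2 subunits therefore did not keep a fixed proportion: the ratio of Gclc to Gclm per kilobase ran from 0.119 to 0.679 in wild-type and from 0.211 to 0.537 in knockout libraries.

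Txnrd1 and Srxn1 keep the thioredoxin system running: TXNRD1 reduces thioredoxin with NADPH, and sulfiredoxin, the product of Srxn1, repairs peroxiredoxins that peroxide has overoxidised. Txnrd1 (ENSMUSG00000020250) stood at 127, 154 and 104 CPM in wild-type and at 160.4, 185 and 115 CPM in knockout libraries. Its log2 fold change was 0.25 ± 0.24 (SE), and 0.11 and 0.43 without knockout replicates 2 and 3. Without wild-type replicates 2 and 3 it was 0.40 and 0.12. Srxn1 (ENSMUSG00000032802) stood at 37.8, 56.5 and 101 CPM in wild-type and at 117, 51.9 and 50.3 CPM in knockout libraries. One library of each genotype was high and the others lay close together. The log2 fold change of Srxn1, 0.19 ± 0.47 (SE), moved with each library left out. It was -0.37, 0.36 and 0.42 without knockout replicates 1, 2 and 3, and -0.07, 0.09 and 0.65 without wild-type replicates 1, 2 and 3, so its direction rested on single libraries.

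Nqo1 and Hmox1 are the most widely used reporters of NRF2 activity, and both varied widely between libraries. Nqo1 (ENSMUSG00000003849), a quinone reductase, stood at 28.0, 9.74 and 18.8 CPM in wild-type and at 22.4, 59.1 and 30.9 CPM in knockout libraries. Knockout replicates 2 and 3 lay above all wild-type libraries, and knockout replicate 1 lay inside their range. The log2 fold change of Nqo1 was 0.93 ± 0.53 (SE), the largest of the 10 in this fit, and was 0.53 when knockout replicate 2 was left out and 0.60 when wild-type replicate 2 was left out. Hmox1 (ENSMUSG00000005413), which encodes the inducible heme oxygenase, had 104, 3 and 446 counts in wild-type and 425, 119 and 380 counts in knockout replicates 1 to 3. The 3 counts in wild-type replicate 2 equal the floor of counting, so the fitted fold changes that include this library depend on the fit and are no measure of size. In CPM, Hmox1 stood at 5.86 in wild-type replicate 1 and 22.6 in wild-type replicate 3, and at 18.6, 8.28 and 17.2 in knockout libraries. The fitted log2 fold change, 0.70 ± 0.84 (SE), depended on 2 wild-type libraries: it was 0.08 without replicate 2 and 2.46 without replicate 3. Macrophages, which are known for high Hmox1, are cells that a lineage-negative gate is meant to remove. Most of the macrophage marker sum was Lyz2, which neutrophils also express, and without it the markers summed to 33.3, 71.8 and 33.9 CPM in wild-type and 67.9, 102 and 59.2 CPM in knockout libraries. The part of such cells in the Hmox1 values was not tested. Hmox1 also belongs to the genes of iron handling, described with the wider pathway.

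**Figure D2:**
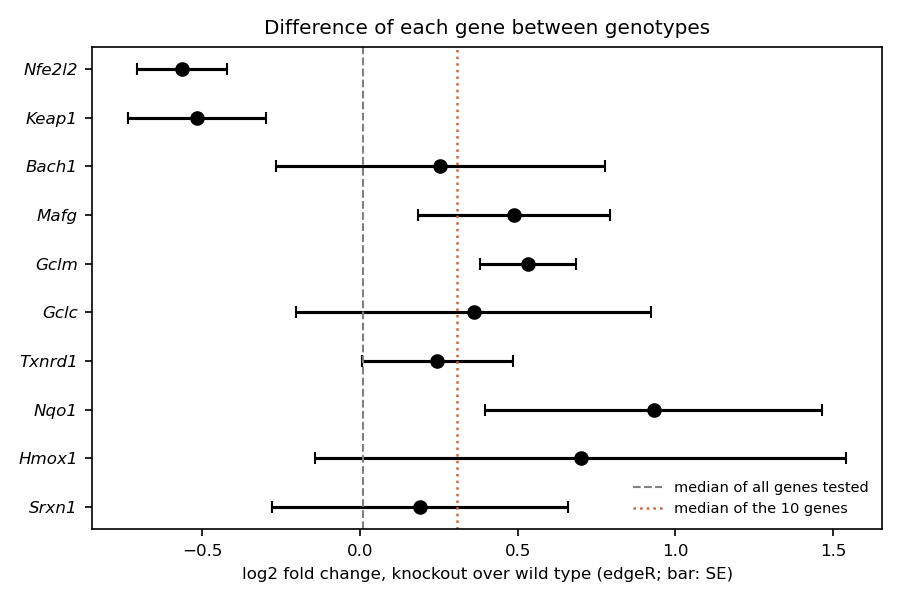
Fitted log2 fold change of knockout over wild type (x axis) for each of the 10 genes (y axis). Points are edgeR estimates from 3 libraries per genotype, bars their standard errors, and vertical lines the medians of all genes tested (0.01) and of the 10 genes (0.31). Nfe2l2 and Keap1 lie below 0 and the other 8 above it, with bars that cross 0 for Bach1, Gclc, Hmox1 and Srxn1.

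Levels of different genes can be compared only per length. TPM, a gene's share of the library's counts per kilobase of exon, was computed with exon lengths from the GENCODE annotation of GRCm38, and the order over the 6 libraries ran from Nfe2l2 through Gclm, Srxn1, Keap1, Txnrd1, Nqo1, Gclc, Hmox1 and Mafg to Bach1. Nfe2l2 stood first at 169 ± 36.6 TPM (SD, n = 6), and its lowest library, at 126 TPM, lay above the highest Gclm library, at 117 TPM. Gclm followed at 95.2 ± 21.0 TPM and Bach1 stood last at 12.4 ± 5.16 TPM (SD, n = 6). The order differed by genotype: Keap1 stood second in wild-type libraries (81.4 ± 18.1 TPM, SD, n = 3), next to Gclm (77.4 ± 11.1 TPM), and at rank 6 in knockout libraries (57.4 ± 5.15 TPM), where Gclm (113 ± 5.45 TPM), Srxn1, Nqo1 and Txnrd1 stood above it. Nfe2l2 stood first and Gclc, Hmox1, Mafg and Bach1 last in both genotypes. Over the 6 libraries, from Gclm downwards, each gene overlapped with the next over the libraries. The transcript of NRF2 was thus several times more abundant per length than those of Mafg (18.8 ± 4.38 TPM) and Bach1, its partner and its competitor.

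The spread between libraries differed as much between genes as their levels did. Differences between mice, the sampling of 50 cells and amplification all enter this spread and cannot be told apart here. Within genotypes, the coefficient of variation of CPM was 6.21% in wild-type and 10.4% in knockout for Nfe2l2, and 11.6% and 7.37% for Gclm. Over the 8293 tested genes with a mean of at least 20 CPM, the median was 25.4% in wild-type and 20.3% in knockout. Hmox1 (122% and 38.1%, at a mean below 20 CPM), Gclc (67.9% and 40.7%), Bach1 (61.9% and 25.3%), Srxn1 (49.9% and 52.1%) and Nqo1 (48.4% and 51.3%) lay above those medians in both genotypes. The others were Keap1 (21.8% and 6.45%), Mafg (17.0% and 13.6%) and Txnrd1 (19.6% and 23.3%). The 2 genes with the least spread in wild-type, Nfe2l2 and Gclm, were also 2 of the 3 whose groups did not overlap. Little spread within groups by itself makes overlap less likely, so no conclusion is drawn from this.

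Across the 6 libraries the 10 genes did not move as a block. Of the 45 pairs, 25 had a positive Pearson correlation of log2 CPM, with a median of 0.09 and a range from -0.92 to 0.86. The highest values were for Gclm with Nqo1 (0.86) and Nfe2l2 with Keap1 (0.83), and the lowest for Nfe2l2 with Gclm (-0.92) and Keap1 with Mafg (-0.86). The points share their library's depth and composition, and the genotypes form 2 clusters for Nfe2l2 and Gclm, so these values describe 6 libraries and no more. No library was extreme throughout: knockout replicate 2 was the highest for 4 of the 10 genes, and wild-type replicate 3 was the highest for 3 and the lowest for 3.

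The 5 genes with the pattern most like that of Nfe2l2, among 8292 with a mean of at least 20 CPM, were Actr3 (r = 0.99), Med8 (0.99), Eif5 (0.98), Fam129b (0.98) and Tmed4 (0.98), as Pearson correlations of log2 CPM over 6 libraries. Actr3 encodes a subunit of the actin-branching Arp2/3 complex, Med8 a Mediator subunit and Eif5 a translation initiation factor. Actr3 stood at 538, 598 and 618 CPM in wild-type and at 467, 404 and 417 CPM in knockout libraries. Of the genes compared, 79 (0.953%) reached an r of 0.9 and 21 (0.253%) reached 0.95. Each of the 5 was higher in every wild-type library than in any knockout library, as the pattern of Nfe2l2 requires.

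**Figure D3:**
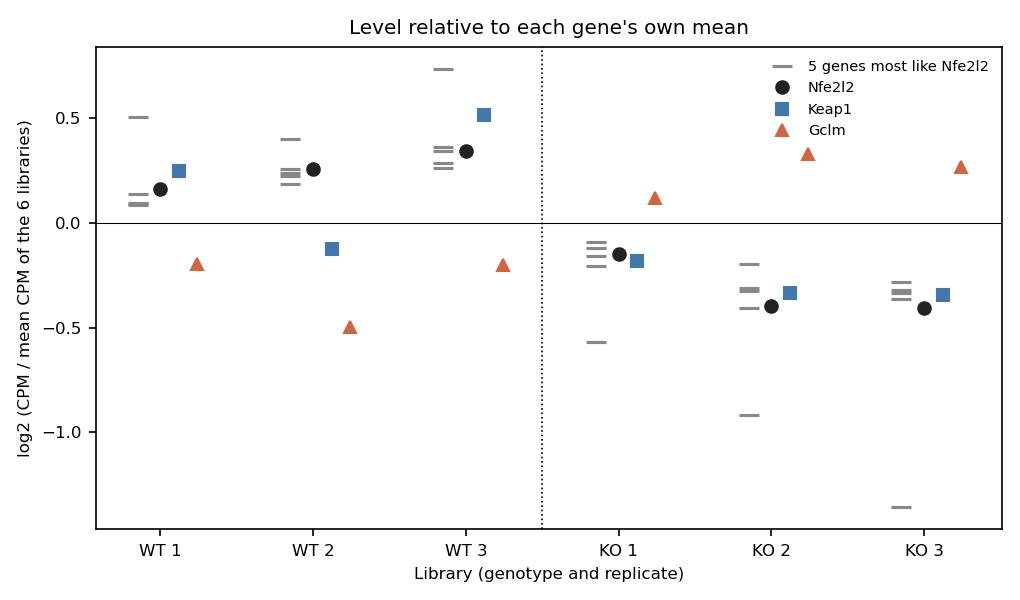
Level of Nfe2l2, Keap1, Gclm and the 5 genes most like Nfe2l2 in each library, as log2 of CPM over the gene's own mean of 6 libraries (y axis), by genotype and replicate (x axis). Nfe2l2 lies above its mean in the 3 wild-type libraries and below it in the 3 knockout libraries, Gclm lies the other way round, and Keap1 lies below its mean in wild-type replicate 2.

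The wider pathway was examined through 118 other genes in 8 lists, of which 101 passed the filter on low counts. edgeR's quasi-likelihood test called 0 of the 101 and limma-voom 0, against 0.0% of all genes for both. DESeq2 with all libraries called 0 of the 103 for which it gave an adjusted p, against 0.861% of all genes. An unadjusted p under 0.05 by edgeR was found for 6 of the 101, 5 of them higher and 1 lower in knockout cells; this is 5.94%, close to the 5.82% of all genes, and is not a result about the pathway. Values above 0 were found for 56 of the 101 and for 50.9% of all genes, and the median log2 fold change was 0.03. The 6 genes with an unadjusted p under 0.05 by edgeR are named because of these p-values. Gstm2 (log2 fold change 0.84 ± 0.36, SE) and Gstm4 (0.74 ± 0.31) encode glutathione transferases of a family of close copies, which could have exchanged reads. G6pdx and Pgls encode the first 2 enzymes of the pentose phosphate pathway, a source of NADPH, and Ces2g a carboxylesterase. Aldh3a2, which encodes a fatty aldehyde dehydrogenase, was the gene with lower values, at 94.1 ± 17.4 CPM in wild-type cells and 45.3 ± 17.3 CPM in knockout cells (SD, n = 3 per group). DESeq2 called Aldh3a2 without knockout replicate 2 (adjusted p = 1.52e-04) and G6pdx without knockout replicate 3 (adjusted p = 0.0135), and neither with all libraries.

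G6pdx stood at 122, 121 and 130.3 CPM in wild-type and at 192, 177 and 146 CPM in knockout libraries. Pgls stood at 82.0, 66.6 and 83.0 CPM in wild-type and at 110.2, 103 and 104 CPM in knockout libraries. For both, every knockout library lay above every wild-type library, as it did for 5.91% of all genes tested. The log2 fold changes were 0.46 ± 0.17 and 0.46 ± 0.20 (SE), and neither passed edgeR's test (unadjusted p = 0.0278 and 0.0489, from the quasi-likelihood fit). Of the 9 NADPH genes tested, 7 had values above 0, with a median log2 fold change of 0.10. The genes of this list with the most counts, Idh2 (421 ± 54.2 and 444 ± 55.0 CPM), Tkt (357 ± 59.8 and 397 ± 61.1) and Taldo1 (192 ± 46.5 and 206 ± 3.91), differed by less than the spread between wild-type libraries (SD, n = 3 per group). For Taldo1 the difference was larger than the knockout SD.

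Relatives of NRF2 and the genes that control its turnover had no call. Among 5 tested relatives, Nfe2, the erythroid and megakaryocytic family member, stood at 670.1 ± 64.2 CPM in wild-type cells and 638 ± 30.4 CPM in knockout cells, and Mafk at 120.2 ± 40.8 and 118 ± 46.0 (SD, n = 3 per group). Nfe2l1, which controls proteasome genes, stood at 31.1 ± 21.7 and 55.5 ± 18.02 CPM, with overlap. All 16 turnover genes were tested, 8 with values above and 8 below 0, at a median log2 fold change of 0.05. Skp1a (384 ± 41.9 and 376 ± 36.1 CPM), Sqstm1 (324 ± 58.3 and 356 ± 117) and Ddb1 (310.3 ± 62.5 and 283 ± 69.2) had the most counts. SQSTM1 is the autophagy receptor that sequesters KEAP1, and DDB1 is the adaptor of the CUL4 ligases that DCAF8 serves. Cul3 stood at 17.4 ± 8.69 and 30.3 ± 16.4 CPM. Dcaf11, whose product is a CUL4-DDB1 receptor reported to bind NRF2 itself, stood at 154 ± 47.6 and 130.2 ± 36.2 CPM, again with overlap.

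The effector lists had medians near that of all genes. Of 26 glutathione genes tested, 14 had values above 0, with a median log2 fold change of 0.04. Gpx1, the cytosolic glutathione peroxidase, stood at 713 ± 20.8 and 792 ± 78.8 CPM, Slc3a2, a chaperone chain of amino acid transporters, at 407 ± 29.7 and 366 ± 15.8, and Gstm1 at 349 ± 32.1 and 330.2 ± 115 (SD, n = 3 per group). Of 18 thioredoxin and peroxiredoxin genes, 10 had values above 0, with a median of 0.03. Prdx6 stood at 945 ± 43.7 and 854 ± 49.8 CPM, Prdx1 at 474 ± 24.9 and 485 ± 88.0, and Txnip, the thioredoxin inhibitor, at 436 ± 45.7 and 490.3 ± 123. Of 4 superoxide dismutase and catalase genes tested, 2 had values above 0, with a median of 0.01: Sod1 stood at 246 ± 15.6 and 270.5 ± 20.4 CPM, Cat at 238 ± 14.6 and 233 ± 16.6, and Sod2 at 172 ± 14.7 and 169.5 ± 22.5. For these genes the fitted differences were at most 0.18 on the log2 scale in either direction. Gpx1 and Sod1 were higher, and Prdx6 lower, in every knockout library than in any wild-type library. Over all lists together, groups did not overlap for 10 genes higher and 3 lower in knockout, of 101 tested. Among all genes tested the shares were 5.91% and 4.43%, so such a separation is not particular to the genes named.

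Around Hmox1, 8 genes of heme breakdown and iron storage or export were tested, 4 with values above 0, at a median log2 fold change of -0.02. The ferritin chains Fth1 (1069 ± 30.8 and 978 ± 80.6 CPM) and Ftl1 (926 ± 175 and 814 ± 74.7) and the heme transporter Slc48a1 (257 ± 37.2 and 271 ± 10.8) had the most counts (SD, n = 3 per group). Among 15 quinone, aldehyde and conjugation genes tested, 9 had values above 0, with a median of 0.04. Akr1a1 stood at 363 ± 36.9 and 416 ± 67.9 CPM, Akr1b3 at 214 ± 19.7 and 213 ± 29.9, and Aldh9a1 at 194 ± 64.3 and 207 ± 11.8 (SD, n = 3 per group).

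**Figure D4:**
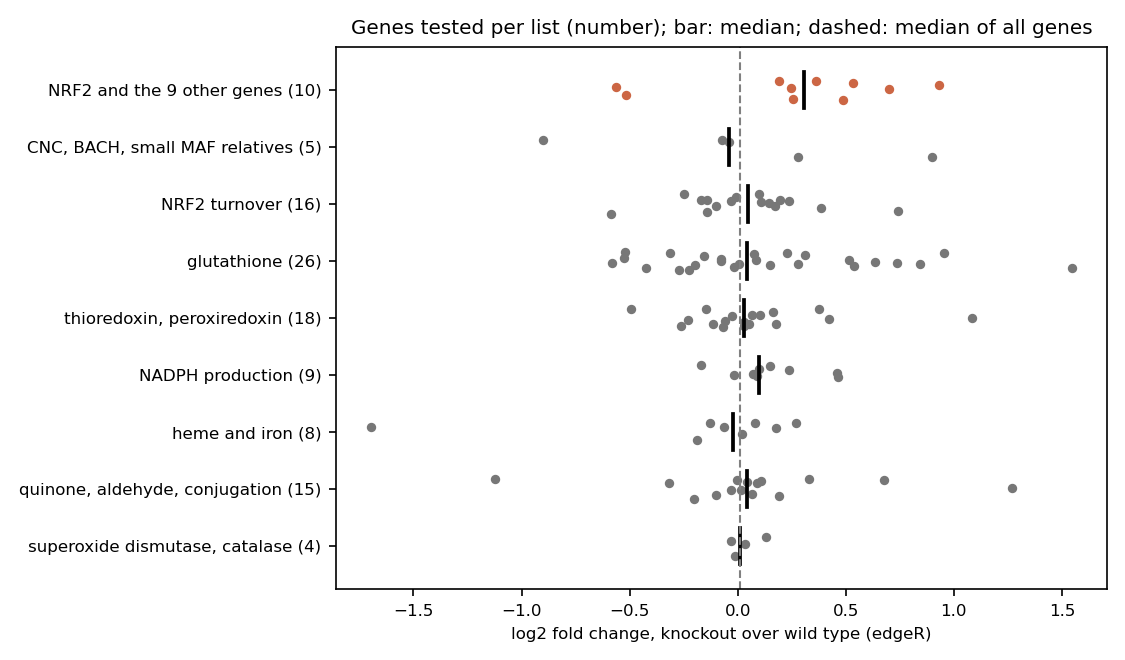
Fitted log2 fold change of knockout over wild type (x axis) for the tested genes of the 10-gene set and of 8 further lists (y axis, number of genes tested in brackets). Each point is a gene, black bars are list medians and the dashed line is the median of all genes tested (0.01). The medians of the 8 lists lie between -0.04 and 0.10, and that of the 10 genes at 0.31.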

How the data were processed

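The authors deposited 1 table of raw read counts per Ensembl gene for 6 libraries, 1 column each, with no summary rows. Per the labels' protocols, full-length cDNA of 50 sorted cells was amplified, tagmented and sequenced without molecular identifiers, so reads can be copies of 1 molecule, and the floor of 3 counts used here is for counting error alone. The build mm39 and, without roles, DESeq2 1.38.3, HTSeq 1.99.2, Picard 2.26.1, HISAT2 2.2.1 and Trimmomatic 0.39 are named per the submitters' processing notes. The annotation release, strand setting and handling of duplicate reads were not given in the sources used here.

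A symbol was matched for 52081 identifiers (94.1%, 99.87% of counts). Genotypes were compared with edgeR 4.0.16 (R 4.3.3): default filterByExpr (minimum count 10, minimum total 15), TMM, robust quasi-likelihood fit (legacy off), genotype as the only term, Benjamini-Hochberg over all genes, threshold 0.05. The SE of each edgeR log2 fold change was derived as its absolute value over the square root of the quasi-likelihood F statistic. Means ± SD are of TMM-normalised CPM, except marker genes, which are CPM of the total count. Correlations used log2 CPM with a prior count of 2. DESeq2 1.42.0, limma-voom (limma 3.58.1) with sample weights, other size factors and filters, a replicate block and each library left out were alternatives. The fits were tested on simulated counts. Groups and replicate numbers came from sample titles; replicates were separate mice. The 10 genes, the lists and the tests were chosen with earlier results of these data known. Named were the 10 genes, Dcaf8, the 3 genes with the most counts in each other list (not chosen by their difference), any gene called by edgeR or DESeq2, and the 5 genes most like Nfe2l2; other genes were named after their values were seen.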

Additional observations from a re-analysis of the deposited data

How the results depend on the processing

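Over all genes, DESeq2 called 153 (100 higher, 53 lower in knockout), against 0 by edgeR under other size factors, other filters, the legacy fit and each library left out, and 0 by limma-voom; leaving out single libraries gave DESeq2 counts of 284 to 770 (335, 322 and 284 without knockout replicates 1 to 3 and 770, 416 and 399 without wild-type replicates 1 to 3). Of the 10 genes DESeq2 called 1 with all libraries and 0 to 2 with single libraries left out, and of the other pathway genes 0, and 0 to 2; the edgeR and limma-voom alternatives called 0 of either. The cause was not tested. Nfe2l2, Keap1, Mafg, Gclm, Txnrd1, Nqo1 and Hmox1 kept the sign of their log2 fold change in all 21 alternatives, while it turned in 2 for Bach1, 2 for Gclc and 4 for Srxn1, all with a library left out. The log2 fold change of Hmox1 was 3.14 by limma-voom with sample weights. Without wild-type replicate 2 it was only 0.08 by edgeR and 0.03 by DESeq2, so its sign was kept by little. The replicate number was treated as a label only, since no pairing was stated. Deviations from the group mean correlated at 0.06, -0.04 and 0.01 for same-numbered libraries and at -0.05 to 0.04 for differently numbered ones. Values from 3 libraries per genotype cannot settle whether libraries were paired. Fitted with a replicate block, edgeR and limma-voom called 0 of all genes, 0 of the 10 and 0 of the other pathway genes. With 50 cells per library, low transcripts may be absent from a library by sampling.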

Other observations

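Slc40a1, which encodes the iron exporter ferroportin and is repressed by BACH1, had 551, 773 and 556 counts in wild-type replicates 1 to 3 and 599, 0 and 0 counts in knockout replicates 1 to 3. Knockout replicate 1 stood at 26.3 TMM-normalised CPM, near the wild-type libraries at 31.0, 37.5 and 28.2 CPM, and the other knockout libraries had no read. With all libraries the gene did not pass edgeR's quasi-likelihood test (adjusted p = 0.881) and DESeq2 gave it no p, while DESeq2 called it when knockout replicate 1 was left out (adjusted p = 2.20e-10). Other genes of the wider pathway also had counts in some libraries and none in others. Cbr3, a carbonyl reductase gene, had 0, 179 and 0 counts in wild-type and 40, 142 and 46 counts in knockout libraries. Ggt1, which encodes an enzyme that breaks down extracellular glutathione, had 99, 0 and 0 counts in wild-type and 58, 0 and 0 counts in knockout libraries. DESeq2 called Ggt1 without knockout replicate 1 (adjusted p = 2.33e-04) and Cbr3 without wild-type replicate 2 (adjusted p = 0.00483), and neither with all libraries. These 3 genes were named after their values were seen.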
